A study of Homo sapiens with 2 samples.

Results

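The long arm of chromosome 1 (1q) was followed gene by gene in SK-LMS-1 and SK-UT-1, 2 human cell lines from leiomyosarcoma, whose RNA was sequenced from 1 library each. Members were the genes whose exons all lie on chromosome 1, whose first listed exon starts above base 143000000 of hg38, and which had at least 10 counts in either library. Histone (HIST), S100 and zinc finger (ZNF) genes were left out by name. The rule took 557 of the 1216 genes that the deposited table places on the arm, out of 26485 genes in all. Another 45 were left out by name and 614 stayed below the count minimum, 402 of them at 0 in both libraries. The counts chose the members, so that a member is expressed in at least 1 line is no finding. The ratio between the lines was not part of the rule, although it was known when the arm was picked.

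Both lines are established lines grown from leiomyosarcomas, malignant tumours with smooth muscle features, and both received the solvent DMSO and no inhibitor. The series concerns the combined inhibition of the histone methyltransferase SUV39H2 and of poly(ADP-ribose) polymerase in uterine leiomyosarcoma. With 1 library per line there is no replicate error, so no test between the lines was possible, no p-value is given, and every difference below compares these 2 libraries. Levels are in CPM, the counts per 1000000 counts of a library size scaled by TMM (trimmed mean of M values). Ratios divide SK-LMS-1 by SK-UT-1 and stand on the log2 scale, with counts below 3 raised to 3, so a negative value means more RNA in SK-UT-1. Members are ranked by these ratios. Folds are given differently at low counts: against 1 to 3 counts the fold is that of the counts as they are, with its interval, and against 0 counts it is written with at least and computed against a floor of 3 counts, which is not the lower limit of an interval. Ranges in parentheses after a fold are exact 95% intervals that cover counting error only.

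Arm 1q carries genes for DNA repair, mitosis, chromatin, the nuclear lamina, laminins and prostaglandin synthesis, beside clusters of skin barrier, olfactory receptor and immune receptor genes that most cell types keep silent. Among its best known tumour genes are MCL1, which blocks apoptosis, MDM4, which restrains p53, CKS1B, a cofactor of cyclin-dependent kinases, and PARP1, the main target of PARP inhibitors. Whole arms are often gained or lost in tumours. The data analysed here are RNA counts alone, and DNA copy number was not analysed here. In such bulk RNA, fewer cells that express a gene and less RNA per cell cannot be told apart.

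Promoters of 7 genes are shown because their genes stand for the patterns described below. Each is the 250 bases before the RefSeq gene start (GRCh38.p14), written 5′ to 3′ on the gene's strand, with CpG dinucleotides, the sites of DNA methylation, in capitals. PARP1 (chr1:226408094-226408343, minus strand) and KDM5B (chr1:202808422-202808671, minus strand) lie between 2-fold and 3-fold more abundant in SK-UT-1.
PARP1: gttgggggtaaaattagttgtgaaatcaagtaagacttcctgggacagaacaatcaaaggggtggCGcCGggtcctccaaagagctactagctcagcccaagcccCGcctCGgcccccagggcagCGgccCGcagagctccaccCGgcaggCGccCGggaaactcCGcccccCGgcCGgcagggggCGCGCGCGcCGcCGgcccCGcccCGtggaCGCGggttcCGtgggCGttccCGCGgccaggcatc
KDM5B: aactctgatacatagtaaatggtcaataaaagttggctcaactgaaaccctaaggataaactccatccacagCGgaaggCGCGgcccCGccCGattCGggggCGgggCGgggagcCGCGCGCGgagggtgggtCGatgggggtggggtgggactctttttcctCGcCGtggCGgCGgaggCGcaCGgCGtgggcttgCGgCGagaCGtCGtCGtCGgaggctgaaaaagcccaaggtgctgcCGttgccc
CREG1 (chr1:167553763-167554012, minus strand) and RGS5 (chr1:163321736-163321985, minus strand) were at 2 and 37 counts in SK-LMS-1, far below SK-UT-1.
CREG1: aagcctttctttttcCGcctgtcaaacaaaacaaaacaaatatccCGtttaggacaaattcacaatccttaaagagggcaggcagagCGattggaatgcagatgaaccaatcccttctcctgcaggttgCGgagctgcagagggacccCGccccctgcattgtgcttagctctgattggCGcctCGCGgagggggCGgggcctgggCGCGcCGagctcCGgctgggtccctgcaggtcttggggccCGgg
RGS5: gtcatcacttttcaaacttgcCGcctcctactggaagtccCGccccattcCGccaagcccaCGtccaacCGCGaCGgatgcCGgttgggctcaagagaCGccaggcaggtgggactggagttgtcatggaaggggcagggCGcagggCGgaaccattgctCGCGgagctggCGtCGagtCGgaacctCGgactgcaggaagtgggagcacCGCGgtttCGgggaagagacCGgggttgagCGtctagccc
PRRX1 (chr1:170663881-170664130, plus strand), PTGS2 (chr1:186680424-186680673, minus strand) and FMN2 (chr1:240091633-240091882, plus strand) were almost silent or at 0 counts in SK-UT-1.
PRRX1: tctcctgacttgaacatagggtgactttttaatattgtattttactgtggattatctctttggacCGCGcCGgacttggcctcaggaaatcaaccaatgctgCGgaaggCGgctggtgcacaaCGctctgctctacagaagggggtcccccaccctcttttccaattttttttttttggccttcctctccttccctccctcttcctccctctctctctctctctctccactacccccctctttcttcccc
PTGS2: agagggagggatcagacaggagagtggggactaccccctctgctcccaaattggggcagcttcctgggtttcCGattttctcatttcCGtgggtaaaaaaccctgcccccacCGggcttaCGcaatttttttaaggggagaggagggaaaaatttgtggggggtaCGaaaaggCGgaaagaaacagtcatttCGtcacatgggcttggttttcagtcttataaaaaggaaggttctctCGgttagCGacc
FMN2: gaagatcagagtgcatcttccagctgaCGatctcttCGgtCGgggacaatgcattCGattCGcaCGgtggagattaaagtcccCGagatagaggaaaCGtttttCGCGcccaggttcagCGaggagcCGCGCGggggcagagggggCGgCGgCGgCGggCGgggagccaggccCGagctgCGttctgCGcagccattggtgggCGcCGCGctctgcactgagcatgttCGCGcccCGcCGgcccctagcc
The windows of PARP1, KDM5B and FMN2 hold 26, 27 and 29 CpG dinucleotides, that of RGS5 22, and those of CREG1, PTGS2 and PRRX1 hold 14, 9 and 6. A dense CpG window was thus present both in genes read in both lines and in FMN2, which had no count in SK-UT-1.

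The SK-LMS-1 library held 6906280 counts and the SK-UT-1 library 7635850. Of 8 smooth muscle markers, 6 reached 10 counts in SK-LMS-1 against 7 in SK-UT-1, with a summed level of 1462 CPM against 528. MYLK, TAGLN, CNN1, CALD1 and SMTN were higher in SK-LMS-1, and ACTA2 and DES in SK-UT-1. CALD1 alone gave 749 CPM of the sum in SK-LMS-1 and 343 CPM of that in SK-UT-1. MYH11, the smooth muscle myosin heavy chain and the most defining marker, was near absent from both at 5 and 2 counts. The epithelial keratin KRT18 had 480 counts in SK-LMS-1 against 85 in SK-UT-1. KRT8, the other keratin among the epithelial markers, had 107 and 130, which is 16.3 and 16.2 CPM. EPCAM, at 1 and 9 counts, and CDH1, at 0 and 4, stayed below 10 in both. Endothelial markers stayed below 10 counts in both lines, the immune cell marker PTPRC was at 0 counts in both, and CD68 was the 1 immune marker of 4 that reached 10 counts, at 91.9 and 14.5 CPM. The part of these marker differences in the results below was not tested.

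Most genes of the arm gave more RNA in SK-UT-1. The median log2 ratio of the 557 members was -0.66, which equals a 1.58-fold higher level in SK-UT-1. Genes of arm 1p chosen by the same rule had a median of 0.01 (789 genes), and genes of all other chromosomes 0.04 (12049 genes). In SK-UT-1, 421 members (75.6%) were higher by any amount, against 49.7% of all 13397 genes that passed the same rule and 49% on 1p. At least 2-fold more abundant in SK-UT-1 were 206 members (37%), against a background of 18.1%. In the other direction, 74 members (13.3%) were at least 2-fold more abundant in SK-LMS-1, against 21.4%. The remaining 277 members (49.7%) lay within 2-fold.

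The quartiles of the members were -1.28 and -0.01, both lower than those of 1p at -0.67 and 0.68. Beyond 4-fold the arm held 61 members higher in SK-UT-1 (11%, background 7.57%) and 51 higher in SK-LMS-1 (9.16%, background 11.8%). Among 24 units formed by 1p, 1q and each other chromosome from 2 to 22 and X, 1q had the lowest median, followed by chromosome 16 at -0.59 and chromosome 22 at -0.55.

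**Figure D1:**
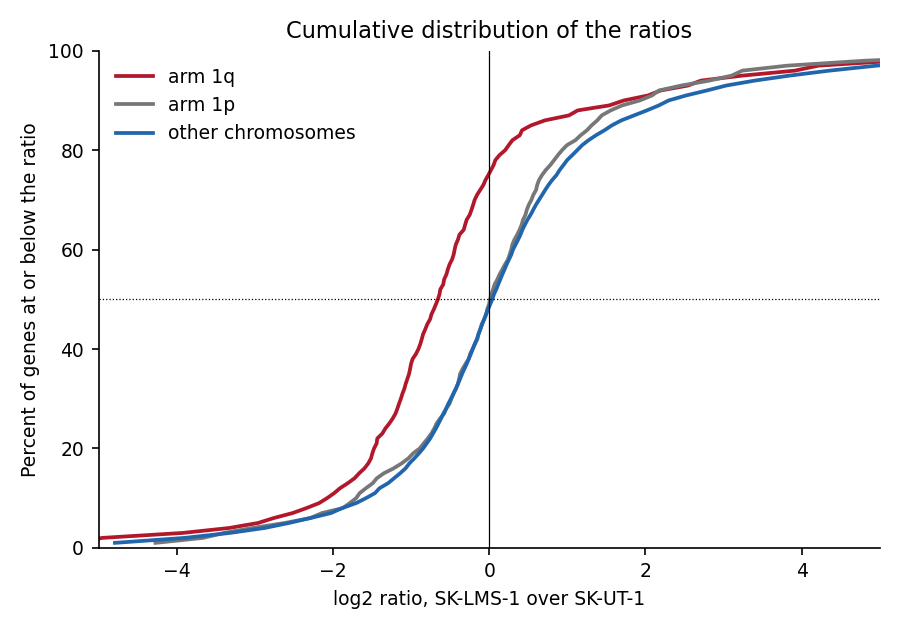
Percent of genes (vertical axis) at or below each log2 ratio of SK-LMS-1 over SK-UT-1 (horizontal axis) for arm 1q, arm 1p and the other chromosomes. The 1q curve crosses 50% at -0.66 and the others near 0.

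The shift did not rest on genes read in 1 line only. At 10 counts or more in both libraries, 436 members had a median of -0.63 with quartiles of -1.11 and -0.14, and 349 of them (80%) were higher in SK-UT-1. The 1p genes that passed both libraries had a median of 0.06 (654 genes). Another 72 members passed the minimum only in SK-UT-1 and 49 only in SK-LMS-1, and these had to differ. Over all 13397 genes of the same rule, 1269 passed only in SK-UT-1 and 1166 only in SK-LMS-1. Counting error alone left the direction of 112 members undetermined, since their interval holds 1.

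Level, length and strand changed the size of the shift little. In tertiles of mean expression, cut over all genes at 11.3 and 52.0 CPM, the member medians were -0.70, -0.66 and -0.64 from low to high. The same tertiles on 1p had medians of -0.38, 0.13 and 0.04, so in the low tertile 1p also lay below 0. By exon length the member medians were -0.76 for the short, -0.64 for the middle and -0.56 for the long tertile. Genes on the plus strand had a median of -0.70 and those on the minus strand -0.63. The 504 members that RefSeq lists as protein coding had a median of -0.63, and the 53 others -1.36.

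The arm supplied a larger share of the SK-UT-1 library. Its members took 2.58% of all counts in SK-LMS-1 (exact Clopper-Pearson 95% interval 2.57 to 2.60), while SK-UT-1 gave them 4.37% (4.36 to 4.39), a ratio of 1.69. Without the 10 members of highest mean CPM the shares were 2.08% and 3.45%, a ratio of 1.66. The 1p genes took 5.85% and 5.68%. In CPM per kilobase of exon, the 3 members with the highest mean CPM went the same way: CCT3, a chaperonin subunit, at 294 and 407 in SK-LMS-1 and SK-UT-1, NUCKS1, a chromatin protein, at 90.8 and 151, and CENPF, a kinetochore protein, at 48.2 and 103.

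Along the arm the partition found no segment border, although stretches differed in their medians. The members, in order of start, were partitioned so that absolute deviations from segment medians were smallest, with at least 30 members per segment and a penalty of 3 ln(n) for each border. The best score fell to 1 segment, from SRGAP2D at 144.0 Mb to PGBD2 at 248.9 Mb. Each of the 9 other settings tried also gave 1 segment. The same procedure run over both arms of chromosome 1 placed a border between the last 1p gene, LINC00623 at 120.9 Mb, and SRGAP2D. It kept all 557 members in 1 segment and cut 1p into 3, of which the middle one, AK4 to CYR61 (65.1 to 85.6 Mb, 62 genes), had a median of 1.48. The procedure could therefore return segments in these libraries, and returned them on the other arm.

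**Figure D2:**
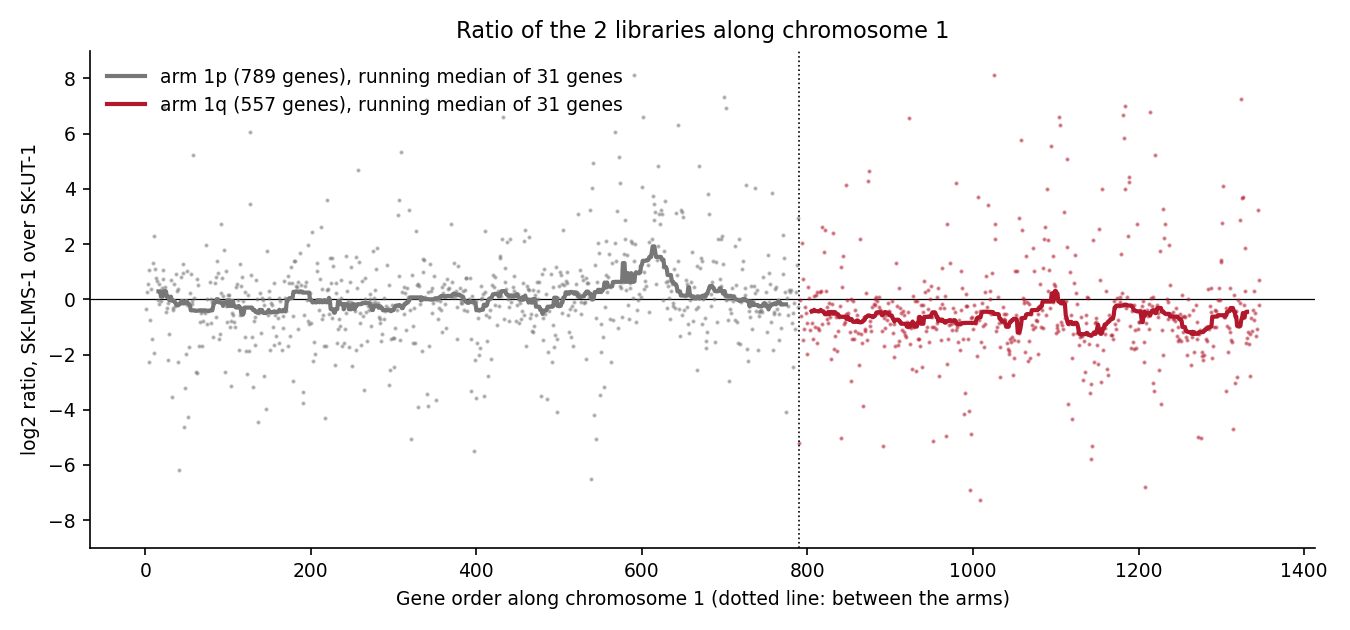
Log2 ratio of SK-LMS-1 over SK-UT-1 (vertical axis) for each gene in its order along chromosome 1 (horizontal axis), with running medians of 31 genes. On 1p the median line runs between -0.56 and 1.92 and lies below 0 at 395 of 759 positions, and on 1q it lies below 0 at 520 of 527.

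Running medians of 31 neighbouring members lay between -1.32 and 0.30 and were below 0 at 520 of 527 positions (98.7%), against 395 of 759 on 1p (52%). The lowest centred on ADORA1 at 203.1 Mb and the highest on SWT1 at 185.2 Mb. Ratios of neighbouring members correlated weakly (Pearson's r = 0.25 over 556 neighbouring pairs, 0.17 over 788 pairs on 1p). This is a description across genes, which share a library and in places exons, and are not independent.

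In windows of 10 Mb, 9 of the 10 windows with at least 10 members had a median below 0. The 133 members between 150 and 160 Mb, the most crowded window, had a median of -0.65. The 62 members between 220 and 230 Mb had the lowest, -1.04, and 32 of them were at least 2-fold more abundant in SK-UT-1. The 33 members between 180 and 190 Mb had the highest, 0.21, with 12 at least 2-fold more abundant in SK-LMS-1 against 6 in SK-UT-1. With 10 counts required in both libraries all 10 such windows were below 0, from -0.83 to -0.25, and the window at 180 to 190 Mb stood at -0.25. On 1p, 5 of 12 windows were below 0, with medians from -0.44 to 1.17. The lowest 1p window was thus as low as the 1q windows that start at 140, 210 and 230 Mb, at -0.43, -0.44 and -0.45.

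**Figure D3:**
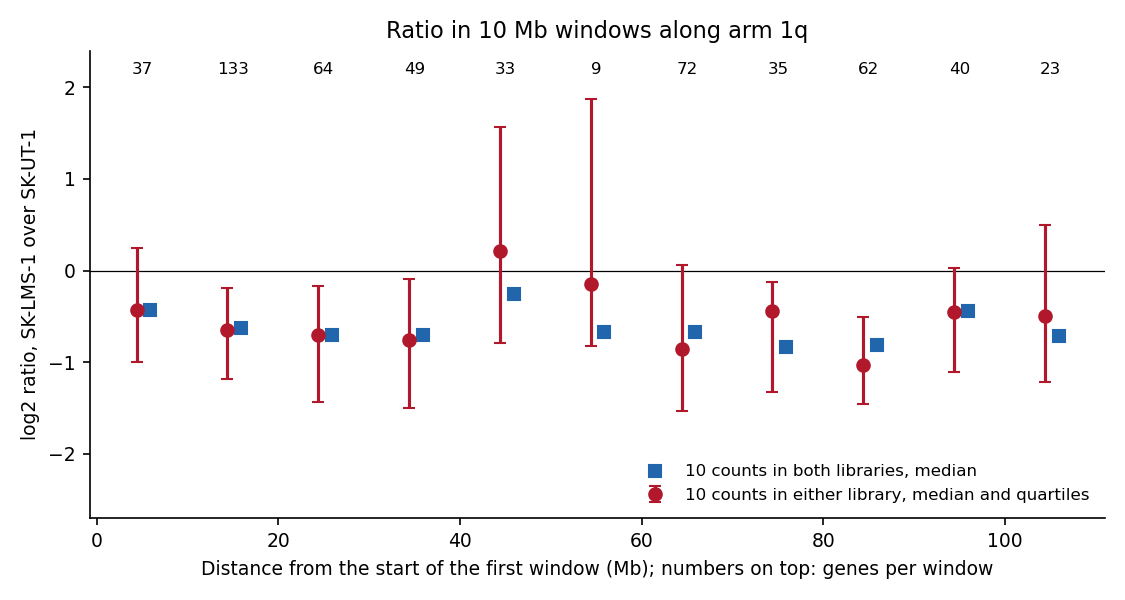
Median log2 ratio (vertical axis, circles, with quartiles as bars) of the members in each 10 Mb window, by distance from the start of the first window (horizontal axis), and the median of members with 10 counts in both libraries (squares). All squares lie below 0, and the circles rise above 0 in 1 window, whose upper quartile reaches 1.57.

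The partition into 6 parts, which scored worse than no border, is used here only to point at stretches that stand out to the eye. The stretches and the genes named in them were picked after their values were seen. Between LAMC1 and NEK7 (183.0 to 198.2 Mb, 30 members) the median was 0.39. In it, 8 members had fewer than 10 counts in SK-UT-1 and 1 in SK-LMS-1. The 21 members with 10 counts in both had a median of -0.08, and 12 of them were below 0. High members of the stretch were PTGS2, the inducible cyclooxygenase of prostaglandin synthesis, and its neighbour PLA2G4A, the phospholipase that frees its substrate, with 240 and 195 counts in SK-LMS-1 against 0 in SK-UT-1. LAMC1, the laminin gamma 1 chain, was 2.17-fold more abundant in SK-LMS-1 (2.02 to 2.33). Next to them, other genes of the stretch lay in the direction of the arm. TPR, a nuclear pore protein, had 357 CPM in SK-LMS-1 against 678 in SK-UT-1, CDC73, a subunit of the elongation factor PAF1, 72.6 and 152, and the spindle gene ASPM 542 and 861.

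A pair of stretches lay lowest. From NR5A2 to RAB7B (up to 206.0 Mb, 55 members) the median was -1.22, and 31 members were at least 2-fold more abundant in SK-UT-1. It holds 15 members with fewer than 10 counts in SK-LMS-1, and over the 40 with 10 counts in both the median was -0.83. From CNIH3 to URB2 (224.6 to 229.6 Mb, 38 members) the median was -1.29 and, over the 33 with 10 counts in both, -1.18. All but 2 of its members were higher in SK-UT-1, and 27 were so by 2-fold or more. PARP1 lies in this stretch. Its log2 ratio of -1.47 stands close to those of LIN9, a regulator of mitotic genes, at -1.38, ENAH, an actin filament protein, at -1.44, and URB2, of ribosome assembly, at -1.51. The longest unbroken run of members higher in SK-UT-1, 23 genes from ADCK3 to URB2, lies inside it. The longest run higher in SK-LMS-1 was 7 genes from PFKFB2 to G0S2 (207.1 to 209.7 Mb).

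The counts for the gene lists below are to be read against the 37% and 13.3% of all members, and the 18.1% and 21.4% of all genes, that were at least 2-fold apart towards SK-UT-1 and SK-LMS-1. All members of the chromatin, repair and splicing lists had 10 counts in both libraries, so their nearer background is the 436 such members of the arm. Of these 436, 138 were at least 2-fold more abundant in SK-UT-1 and 25 in SK-LMS-1, and 349 (80%) were below 0. The other lists take in members read in 1 line only, which had to differ. Chromatin genes of the arm were all higher in SK-UT-1. Of the 21 chromatin members, 21 had a ratio below 0, 7 (33.3%) were at least 2-fold more abundant in SK-UT-1, none in SK-LMS-1, and the median was -0.82. KDM5B, which removes methyl groups from lysine 4 of histone H3, had 47.5 CPM in SK-LMS-1 against 135 CPM in SK-UT-1, a log2 ratio of -1.51. POGZ, a heterochromatin-binding zinc finger protein, was 2.41-fold higher (2.14 to 2.72). SETDB1, which methylates lysine 9 of histone H3 as SUV39H2 does, had 24.3 and 42.7 CPM, 1.76-fold more abundant in SK-UT-1 (1.46 to 2.14). The protein methyltransferase genes SMYD2 and SMYD3 had log2 ratios of -0.59 and -0.38. H3F3A, for histone H3.3, shares 98.1% of its exon bases with another gene on its strand and is uncertain.

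The repair genes followed. Of 12 members of the DNA repair and ADP-ribosylation list, 11 were below 0 and 6 (50%) were at least 2-fold more abundant in SK-UT-1, none in SK-LMS-1. The median was -0.89. PARP1 (chr1:226360691-226408100, minus strand) had 98.9 CPM in SK-LMS-1 against 273 in SK-UT-1. EXO1, a nuclease of end resection and mismatch repair, had 45.3 and 135 CPM, a log2 ratio of -1.57. DTL, which directs destruction of replication licensing factors, was the lowest of the list at 45.2 and 152 CPM, 3.36-fold more abundant in SK-UT-1 (2.96 to 3.83). CHD1L, a remodeller that binds poly(ADP-ribose), had 34.8 and 71.8 CPM. SWT1, an RNA endonuclease, was the exception with a log2 ratio of 0.48. MSTO1, at a log2 ratio of -1.30, is among the 6 counted as at least 2-fold more abundant in SK-UT-1. It shares 85.9% of its exon bases with another gene on its strand and is uncertain. Its place in a list of repair genes is doubtful as well.

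Mitotic genes had a median of -0.91 over 19 members, with 8 (42.1%) at least 2-fold more abundant in SK-UT-1 and 1 (5.26%) in SK-LMS-1, shares near those of all members. NEK2, a centrosome kinase, had 44.6 CPM in SK-LMS-1 against 157 in SK-UT-1, 3.52-fold higher (3.10 to 4.01). CENPF was 2.13-fold higher (2.04 to 2.21). KIF21B, a kinesin, was at 0 counts in SK-LMS-1 against 75 in SK-UT-1, which is at least 20.4-fold higher. CKS1B had 13.1 and 24.6 CPM, 1.87-fold higher (1.45 to 2.44). Above 0 were 2 members, KIFAP3, which binds kinesin motors, with a log2 ratio of 0.94, and NEK7. NEK7, a kinase of spindle assembly and of the inflammasome, had 260 CPM in SK-LMS-1 against 70.8 in SK-UT-1, 3.67-fold more abundant in SK-LMS-1 (3.34 to 4.04).

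Genes of splicing, translation and protein turnover lay close together. Of 30 members, 29 were below 0, 25 lay within 2-fold, 5 (16.7%) were at least 2-fold more abundant in SK-UT-1 and 0 in SK-LMS-1. The list had a median of -0.60 and a range of -1.34 to 0.21. PRPF3, a splicing factor, had 53.9 and 137 CPM, 2.54-fold more abundant in SK-UT-1 (2.25 to 2.87), and ILF2, an RNA-binding protein, 135 and 300 CPM, 2.23-fold higher (2.06 to 2.41). HNRNPU, a nuclear scaffold RNA-binding protein also counted among the chromatin members, had 536 and 848 CPM. EDEM3, of endoplasmic reticulum protein disposal, was the 1 member above 0.

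Metabolic and mitochondrial genes had a median of -0.87 over 38 members, 17 (44.7%) at least 2-fold more abundant in SK-UT-1 and 4 (10.5%) in SK-LMS-1. MRPS21, a mitochondrial ribosome protein, had 15.1 and 52.6 CPM, 3.48-fold more abundant in SK-UT-1 (2.79 to 4.37), and TIMM17A, of the mitochondrial import channel, 13.9 and 44.2 CPM, 3.18-fold higher (2.52 to 4.06). FH, the fumarate hydratase lost in some hereditary smooth muscle tumours, had 72.6 and 84.1 CPM, 1.16-fold more abundant in SK-UT-1 (1.03 to 1.30). QSOX1, which forms disulfide bonds in secreted proteins, was 3.62-fold more abundant in SK-LMS-1 (3.24 to 4.04), where it had 199.9 CPM against 55.3.

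Of 15 survival and stress members, 4 (26.7%) were at least 2-fold more abundant in SK-UT-1 and 3 (20%) in SK-LMS-1 (median -0.52). MCL1 had 161 CPM in SK-LMS-1 against 249 in SK-UT-1, 1.55-fold more abundant in SK-UT-1 (1.44 to 1.67), close to the median of the arm. MDM4 had 53.7 and 124 CPM, 2.30-fold higher (2.03 to 2.60). BTG2, a p53 target that slows proliferation, had 3 and 146 counts, 39.6-fold higher (13.3 to 194). TRAF5, a signalling adaptor of TNF receptors, was 3.37-fold more abundant in SK-UT-1 (2.41 to 4.79). DUSP10, a phosphatase of stress kinases, was 4.64-fold more abundant in SK-LMS-1 (2.73 to 8.29).

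Matrix and adhesion genes were split, with 8 of 19 members (42.1%) at least 2-fold more abundant in SK-UT-1 and 6 (31.6%) in SK-LMS-1 (median -0.43). The laminin chain genes LAMB3 and LAMC1 were higher in SK-LMS-1. NID1, whose product links laminin to collagen IV, went the opposite way. It had 51.0 CPM in SK-LMS-1 against 414 in SK-UT-1, 8.12-fold more abundant in SK-UT-1 (7.25 to 9.11). VANGL2, of planar cell polarity, had 0 and 115 counts, at least 31.2-fold more abundant in SK-UT-1, and ADAMTS4, a protease of proteoglycans, 45 and 1 counts, 55.3-fold more abundant in SK-LMS-1 (9.43 to 2231).

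Signalling members had a median of -0.23, with 8 of 19 (42.1%) at least 2-fold more abundant in SK-UT-1 and 3 (15.8%) in SK-LMS-1. RGS4 and RGS5, neighbours that shorten signals of G protein-coupled receptors, were both far higher in SK-UT-1. RGS4 had 41.2 and 683 CPM (16.6-fold, 14.7 to 18.8) and RGS5 5.65 and 675 CPM (119-fold, 86.6 to 169.9). RGS7, another member of that family, was at 32 counts in SK-LMS-1 against 0 in SK-UT-1. TGFB2, a growth factor of the TGF-beta family, had 30.2 and 244 CPM, 8.09-fold more abundant in SK-UT-1 (6.98 to 9.41), and shares 23.2% of its exon bases with a transcript on its strand, so its counts are uncertain.

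Of 13 muscle and cytoskeleton members, 5 (38.5%) were at least 2-fold more abundant in SK-UT-1 and 2 (15.4%) in SK-LMS-1 (median -0.49). PPP1R12B, a regulatory subunit of myosin phosphatase, had 16.6 and 41.5 CPM. CSRP1, a LIM protein of smooth muscle, had 194 and 63.1 CPM, 3.07-fold more abundant in SK-LMS-1 (2.76 to 3.41). TPM3, a tropomyosin, had 517 and 726 CPM, and LMNA, the lamin of the nuclear envelope, 218 and 229. Of 20 transcription factors, 4 (20%) were at least 2-fold more abundant in SK-UT-1 and 3 (15%) in SK-LMS-1 (median -0.47), and the share towards SK-UT-1 was nearer to that of all genes than to that of the arm. NR5A2, a nuclear receptor, had 0 and 51 counts in SK-LMS-1 and SK-UT-1, at least 13.8-fold higher, and HLX, a homeobox factor, 55 and 7 counts, 9.65-fold more abundant in SK-LMS-1 (4.38 to 25.1).

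Gene clusters typical of other cells were mostly silent. Of 40 immune cell genes on the arm, 6 were members, none was higher in SK-UT-1, and 4 were at least 2-fold more abundant in SK-LMS-1. CD55, which shields cells from complement, had 64.7 and 21.0 CPM, 3.08-fold more abundant in SK-LMS-1 (2.57 to 3.71), while CD46, of similar role, had 113 and 96.0. Of 23 epidermal differentiation genes 1 was a member, FLG, for filaggrin, with 48 counts in SK-LMS-1 against 0 in SK-UT-1, which is at least 19.7-fold higher. Of the 52 olfactory receptor genes listed on the arm, none reached 10 counts and 50 were at 0 in both libraries.

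**Figure D4:**
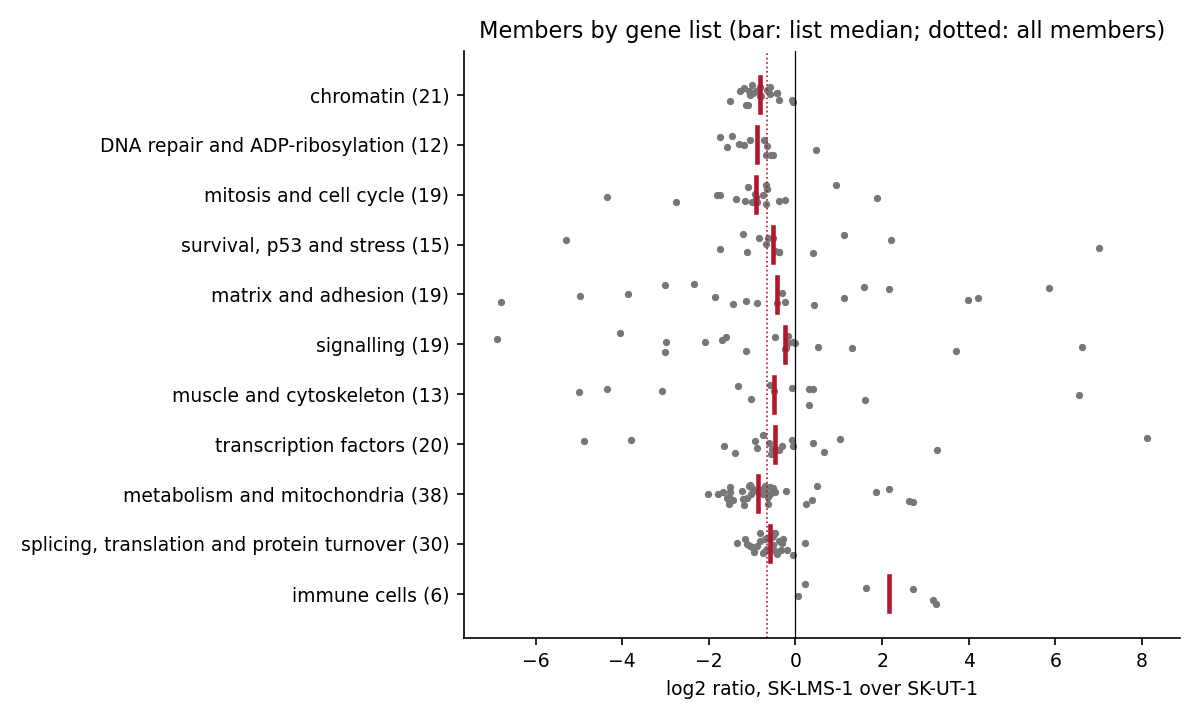
Log2 ratio of SK-LMS-1 over SK-UT-1 (horizontal axis) of each member, by gene list (vertical axis, number of members in parentheses), with list medians as bars. The chromatin and the splicing, translation and turnover lists lie near the dotted median of all members at -0.66, and the matrix, signalling and transcription factor lists spread to both sides.

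Towards SK-LMS-1 the largest ratios came mostly from genes nearly silent in SK-UT-1. Towards SK-UT-1 this held for some genes only, since RGS4, NID1 and TGFB2 had 270, 334 and 198 counts in SK-LMS-1. Among members at 20 CPM or more, CREG1, a secreted lysosomal glycoprotein, was among the 10 with the largest ratios towards SK-UT-1, with 2 counts in SK-LMS-1 against 569 in SK-UT-1, 232-fold higher (63.8 to 1917). VASH2, a vasohibin that trims tubulin tails, had 1 and 412 counts, 335-fold higher (59.9 to 13280). RGS5 and RGS4, given with the signalling members, were also among the 10. ADORA1, an adenosine receptor, had 0 and 202 counts, at least 54.8-fold higher. TUFT1, tuftelin, had 20 and 357 counts, 14.5-fold higher (9.27 to 24.1). NID1 and TGFB2, described above, were also among them.

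Towards SK-LMS-1, PRRX1, a homeobox factor of mesenchyme, had 680 and 3 counts, 278-fold higher (94.9 to 1353). FMN2, an actin-nucleating formin, had 368 counts against 0, at least 151-fold higher, and KCNK2, a potassium channel, 272 against 0, at least 111-fold higher. G0S2, an inhibitor of fat breakdown, had 313 and 3 counts, 128-fold higher (43.5 to 625). PLXNA2, a semaphorin receptor, had 248 and 2 counts, 152-fold higher (41.7 to 1265), and SYT11, a synaptotagmin, 230 and 2 counts, 141-fold higher (38.7 to 1173). PTGS2 was at least 98.3-fold higher and PLA2G4A at least 79.8-fold higher. LAMB3, a laminin chain of epithelial basement membranes, had 708 and 15 counts, 58.0-fold higher (34.9 to 104), and PAPPA2, a protease of IGF-binding proteins, 132 and 0 counts, at least 54.0-fold higher.

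**Figure D5:**
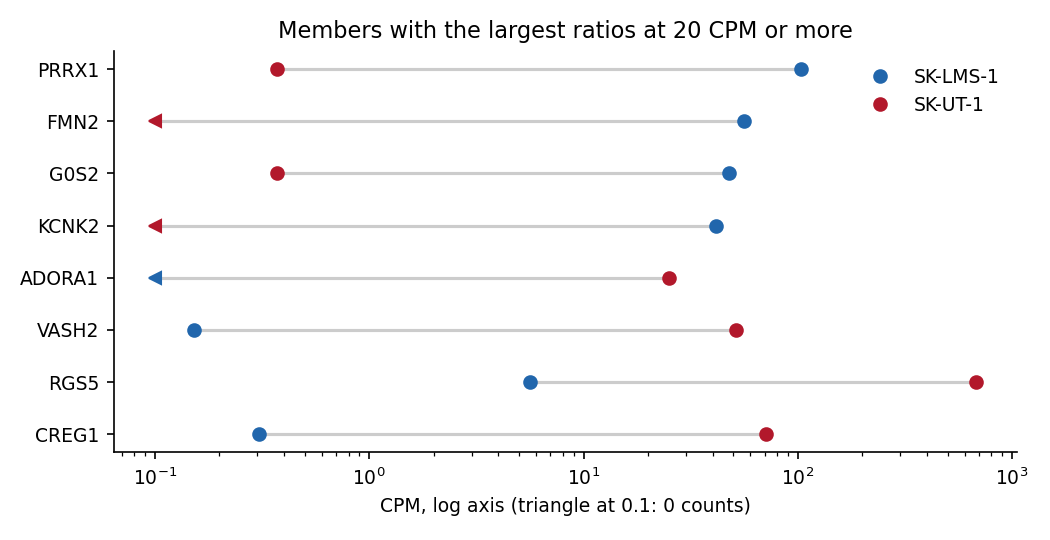
CPM on a log axis in SK-LMS-1 and SK-UT-1 for the 4 members with the largest ratio in each direction (20 CPM or more where higher), with triangles for 0 counts. FMN2 and KCNK2 had 0 counts in SK-UT-1, and ADORA1 had 0 counts in SK-LMS-1.

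At 0 counts in 1 library stood 34 members, 20 in SK-UT-1 and 14 in SK-LMS-1. Of the 557 members, 72 were below 10 counts only in SK-LMS-1 and 49 only in SK-UT-1. Over all 13397 genes of the same rule these numbers were 1269 and 1166. The members at 0 counts were not set against all genes. Picked after their values were seen, HORMAD1, a meiotic chromosome protein expressed in some tumours, had 0 and 119 counts, SHE, an adaptor protein, 0 and 148, and LYPLAL1, a lysophospholipase-like enzyme, 92 and 0.

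A RefSeq promoter was matched to 448 of 557 members. The median number of CpG dinucleotides in the 250 bases before the start was 19.5 in members at least 2-fold more abundant in SK-UT-1, 18.0 in those within 2-fold and 18.0 in those at least 2-fold more abundant in SK-LMS-1, against 11 over 27305 promoters, 1 per gene symbol. At least 10 CpG were in 79.1%, 83.1% and 62.3% of the windows of these classes, and in 51.9% of all. Of the 53 windows in the class towards SK-LMS-1, 34 belong to members with 10 counts only in SK-LMS-1, which had to differ. At least 10 CpG were in 52.9% of these 34 and in 70.5% of the 44 with 10 counts only in SK-UT-1. Among the 370 windows of members with 10 counts in both libraries the share was 82.7%. The classes by direction therefore also differ in how many members were read in 1 line only. Members with under 10 CpG had a median log2 ratio of -0.38 (93 members), those with 10 to 19 had -0.64 (156) and those with 20 or more -0.75 (199). These medians take in members read in 1 line only, and were not computed without them. The TATA box TATAAA, searched on both strands, was in 6.03% of the members' windows and 11.1% of all, and the GC box GGGCGG in 65.2% and 42.3%. The 27305 promoters were not limited by counts, whereas members had to reach 10 counts. The differences between members and all promoters therefore cannot be told apart from an effect of the count minimum. The PTGS2 window printed above holds TATAAA, and those of PARP1, KDM5B, CREG1, RGS5 and FMN2 hold GGGCGG.

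At the edges of the rule, 21 members had a higher count of 10 to 12, and 27 genes of the arm had 7 to 9 and were no members. Around the centromere, 2 genes passed the count minimum and belong to neither arm as defined here.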

How the data were processed

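Total RNA libraries of SK-LMS-1 and SK-UT-1 treated with DMSO were made with a stranded SMARTer kit, per the labels' protocols. The deposited counts per gene were produced by the authors in featureCounts 2.0.1 from hg38 alignments with a UCSC annotation, strand setting 1, fragments over several genes counted for each, per the file headers. Whether this strand setting matches the orientation of the kit's reads could not be settled. The aligner name is not given in sources used here. Another 2 columns of counts match neither sample and were not used.

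TMM factors came from edgeR 4.0.16 in R 4.3.3. No test was made, with 1 library per line. Intervals are exact conditional binomial (Clopper-Pearson) intervals, and they treat amplified fragments as independent molecules. A fold against 0 counts is computed against a floor of 3 counts (0.458 CPM for SK-LMS-1, 0.373 CPM for SK-UT-1) and written with at least. Partition and intervals were tested on simulated data. The block planted for the partition was longer, and shifted further from the rest, than the stretches described above as highest and lowest. Simulated segments as short or as weakly shifted as those stretches were not tried. The arm and the gene lists were chosen with earlier results of these data known. Named genes are known genes of the arm, the 10 largest ratios per direction at 20 CPM or more, up to 2 per list and direction at 5 CPM or more, and the 3 members of highest mean CPM. Some genes that the rule takes are not reported here. Other genes are named as examples and were picked after their values were seen. Of the members, 518 matched RefSeq by symbol and 30 by synonym, and 17 are uncertain through shared exons or several loci. Alternatives were other scalings (DESeq2 1.42.0 size factors among them), filters, floors and partition settings.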

Additional observations from a re-analysis of the deposited data

How the results depend on the processing

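The median of the arm stayed below 0, and 1 segment was found, under all alternatives run. No paired analysis was possible because each line has 1 library. Library totals and the edgeR upper quartile moved the median of the arm from -0.66 to -0.81 and -0.79, and that of all genes from 0.01 to -0.14 and -0.13. Relative to 1p the gap was -0.67 under each scaling, which had to be so because a scaling shifts the ratios of all genes alike. With genes at 1 count admitted the median was -0.38, where many ratios rest on the floor. Fewer genes tested lowered the counts: at 10 counts in both libraries 25 members were at least 2-fold more abundant in SK-LMS-1, with 84.7% of all 2-fold members higher in SK-UT-1 against 73.6% in the main count, and at a mean of 50 counts 31 were higher in SK-LMS-1 against 137 in SK-UT-1. A 4-fold rule left 61 members higher in SK-UT-1 and 51 in SK-LMS-1 (11% and 9.16%, against 7.57% and 11.8% of all genes). The split between the directions was thus more even than at 2-fold. A whole interval beyond 2-fold left 104 higher in SK-UT-1 and 56 in SK-LMS-1, and the share over all genes was not computed for this rule. The share of counts was 2.08% and 3.45% without the 10 members of highest mean CPM, and 2.70% and 4.59% with the HIST, S100 and ZNF genes. Of 54 named genes none changed direction under another scaling, and CKS1B passed 2-fold under library totals and upper quartile. Adding genes also listed on alternate scaffolds, chosen after seeing the data, gave -0.65.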

Other observations

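Genes of 3 families on the arm were left out by name and lay mostly in the same direction. Of 15 histone genes on 1q, 14 reached 10 counts, and all 14 were at least 2-fold more abundant in SK-UT-1, with a median log2 ratio of -2.43 (SK-LMS-1 over SK-UT-1) and a range from -5.18 for HIST3H2A to -1.29 for HIST2H3A. Histone genes have near-identical copies, so single values are uncertain. Of 11 zinc finger genes at 10 counts, 6 were at least 2-fold more abundant in SK-UT-1 and 0 in SK-LMS-1 (median -1.14). Of 6 such S100 genes, 2 were at least 2-fold more abundant in SK-UT-1, among them S100A10 at -2.30, and 1 in SK-LMS-1, S100A16 at 3.48.

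Another 15 genes of the arm are listed on chromosome 1 and on an alternate scaffold of it, and so were no members. Their median log2 ratio was -0.28, with 5 at least 2-fold more abundant in SK-UT-1 and 2 in SK-LMS-1. INTS3, a subunit of the Integrator complex, was among them and had 91.6 and 127 CPM.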
